A study of Homo sapiens with 6 samples.

Results

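The LINC genes are human loci that carry the placeholder symbol for long intergenic noncoding RNA. They were taken from a table of RNA-seq read counts as the rows named LINC plus a number, LINC-ROR or ESRG with a mean of at least 100 reads over the 6 libraries. The table had 53719 rows, of which 377 carried such a name and 63 reached that mean. They were thus chosen by their own read counts in these libraries, so that they are detected at this level is a description and not a finding. The rule used no difference between the groups.

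The libraries were made from H9, an established human embryonic stem cell line, grown in RSeT, a medium sold for holding these cells in a naive-like state. Both groups were transfected with a gapmer, a short antisense oligonucleotide whose DNA core lets RNase H cut the RNA it pairs with. The knockdown group received an ALR gapmer, directed at the RNA of alpha satellite repeats, which form human centromeres, and the other group a control gapmer. RNA was extracted 48 h later, and each group had 3 libraries, lettered a to c. The labels do not say whether they came from separate cultures, so the p-values below measure the spread between libraries, which may be technical. Reads assigned to genes ranged from 25087629 to 36576752 per library, and knockdown library a detected 29678 rows against 25898 to 26788 in the other 5. Of the markers of pluripotent cells, POU5F1, NANOG, LIN28A, DPPA4 and SALL4 were expressed, and their summed level was 3221 to 3558 CPM (reads scaled to a common library size) after knockdown and 3102 to 3161 in control. LIN28A alone had 1511 to 1872 CPM, and the sum was not tested. In the edgeR test used below, 0 of these 5 genes passed, the smallest adjusted p being 0.0948 for POU5F1. SOX2 was listed at 0 in every library, so a 0 in this table is given here only as listed.

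Long noncoding RNAs are transcribed, capped and often spliced like messenger RNAs, but most work without a protein product. Some hold proteins or microRNAs away from other targets, some act on the chromatin near their own gene, and for many no function is known. In pluripotent stem cells several, among them LINC-ROR and TUNAR, have been reported to take part in maintaining the undifferentiated state. A LINC symbol is only a name given before a gene was studied. In RefSeq (assembly GRCh38.p14), 61 of the 63 matched a single gene, 41 by symbol and 20 by an older name, and 55 of these 61 are annotated as noncoding. The other 6 are now annotated as protein-coding: LINC00493 (SMIM26), LINC00854 (CCDC200), LINC00094 (BRD3OS), LINC00085 (SPACA6), LINC00617 (TUNAR) and LINC00371 (C13orf42). The label of noncoding RNA therefore does not hold for those 6. LINC00849 had no match, and LINC00086 is listed as an older name of both SMIM10L2A and SMIM10L2B. No annotation class was assigned to either row, so whether the noncoding label holds for LINC00086 was left unsettled.

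LINC-ROR has been described as binding miR-145-5p, a microRNA that represses pluripotency factors. The mature miRNA is shown from RefSeq with its seed, bases 2 to 8, in capitals.
hsa-miR-145-5p: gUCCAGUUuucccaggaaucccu
The DNA complement of that seed, AACTGGA, was searched on the transcript strand. It occurred in 0 of 8 GENCODE transcripts of LINC-ROR, the longest being 2604 nt, and in 15.6% of all 206694 GENCODE release 29 transcripts. That count says only that these letters are not in these transcript models.

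The RefSeq promoters, from 250 bases before to 50 after the gene start, are shown for the 3 members with the smallest p-values below. For LINC00086 the promoter is that of SMIM10L2A. Capitals mark the AP-1 motif TGAGTCA in the first sequence and the GC box GGGCGG in the other 2. Both strands were searched for these motifs, which do not overlap, and they were chosen after the sequences had been seen.
LINC00152 (CYTOR), chr2:87455177-87455476, plus strand: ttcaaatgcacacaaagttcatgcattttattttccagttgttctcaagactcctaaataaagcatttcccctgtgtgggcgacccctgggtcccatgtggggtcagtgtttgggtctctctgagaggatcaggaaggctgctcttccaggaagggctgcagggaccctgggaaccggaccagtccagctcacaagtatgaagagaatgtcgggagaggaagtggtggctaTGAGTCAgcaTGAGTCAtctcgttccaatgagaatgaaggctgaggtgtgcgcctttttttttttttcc
LINC00340 (CASC15), chr6:21666163-21666462, plus strand: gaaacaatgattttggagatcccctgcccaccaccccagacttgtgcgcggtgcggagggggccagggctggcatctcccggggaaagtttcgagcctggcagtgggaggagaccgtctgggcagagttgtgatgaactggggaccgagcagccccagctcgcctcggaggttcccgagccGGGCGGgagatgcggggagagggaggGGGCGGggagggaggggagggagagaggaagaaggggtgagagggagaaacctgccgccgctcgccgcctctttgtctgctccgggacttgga
LINC00086 (SMIM10L2A), chrX:135421694-135421993, plus strand: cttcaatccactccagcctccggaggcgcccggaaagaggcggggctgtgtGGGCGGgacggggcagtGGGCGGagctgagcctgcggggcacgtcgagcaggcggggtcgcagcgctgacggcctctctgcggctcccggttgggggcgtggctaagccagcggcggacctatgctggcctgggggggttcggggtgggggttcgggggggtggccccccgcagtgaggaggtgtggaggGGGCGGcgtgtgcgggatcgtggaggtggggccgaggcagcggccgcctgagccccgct
The LINC00152 window has a GC content of 49.7%, 5 CpG and 2 copies of TGAGTCA. The LINC00340 window has 66.7% GC, 19 CpG and 2 copies of GGGCGG, and that of SMIM10L2A has 75.3% GC, 30 CpG and 3 copies. TGAGTCA occurs in 4.95% of all 35116 RefSeq promoters of this length and in 3 of the 59 that belong to members (5.08%). GGGCGG occurs in 45.0% of all and in 19 of 59 (32.2%). The octamer ATGCAAAT, bound by POU factors, occurs in 1.77% of all promoters and in 2 of the 59, both listed for LINC00641, and TATAAA occurs in 11.5% of all and in 8 of 59. The median member promoter had 8 CpG and 55.3% GC, against 14 CpG and 58.7% for all promoters.

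The expressed LINC RNAs took 0.385% to 0.570% of the reads of a library. A single gene, LINC00486 on chromosome 2 (32825441 to 32842597), held 54.2% to 67.7% of those reads and ranked 9 among all rows by mean count. Without it the other 62 held 0.169% to 0.184% in every library. Of the 63, 15 had a mean of at least 1000 reads and 18 had 100 to under 200. Just inside the threshold were LINC00393 with a mean of 104 reads, LINC00598 with 114.5 and LINC00422 with 117. Just outside were LINC00607 with 95.3 and LINC00087 and LINC00458 with 95.2 each. Of the other LINC rows, 69 had a mean of 10 to under 100, 194 had a mean above 0 and under 10, and 51 were listed at 0 in all 6 libraries. ESRG, a primate-specific RNA of pluripotent cells that the rule names, was among the rows listed at 0, and so no member carries that name.

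Levels of different genes were compared per kilobase of merged GENCODE exons, which 58 members have. The median was 3.56 CPM per kb in control, and the lowest was LINC00511 at 0.212. LINC00486, an RNA of no established function, stood at 894 ± 292 CPM per kb in control and 837 ± 233 after knockdown (SD, n = 3 each). Whether all reads counted for LINC00486 come from its RNA was not tested, so this level is given only as listed. LINC00371, now the coding gene C13orf42, had 71.5 ± 8.38 in control and 69.5 ± 2.13 after knockdown. LINC00657, now called NORAD, had 65.5 ± 2.06 in control and 64.2 ± 4.81 after knockdown. LINC00371 and NORAD do not differ beyond their spread, and both lie far below LINC00486 and above the next gene, LINC00843, at 33.1 in control and 29.5 after knockdown. LINC00843 shares exon sequence on its own strand with TIMM23B, so its reads are uncertain. Then followed LINC00623 with 27.8 CPM per kb in control, LINC00698 with 21.2, LINC00641 with 16.8 and LINC00665 with 16.4.

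After ALR knockdown, 1 of the 63 LINC RNAs (1.59%) passed an adjusted p of 0.05 in edgeR's quasi-likelihood test, and it was lower: LINC00086. Among all 19721 genes tested, 0.786% passed, 0.649% lower and 0.137% higher, and 1.14% passed among the 13368 with a mean of at least 100 reads (0.95% lower, 0.194% higher). The share of LINC RNAs called therefore lies near the background. The median log2 fold change of the 63 was -0.03, with 29 above 0 and 34 below, against 0.02 over all genes tested and 0.003 over those with at least 100 reads. Individual values ran from -0.58 to 0.31, and 2 of the 63 lay past 0.5 in size. At an unadjusted p under 0.05, 10 were lower and 1 was higher, together 17.5% of the 63. The corresponding shares were 14.3% of all genes tested (7.57% lower, 6.68% higher) and 18.6% of those with at least 100 reads (10.6% lower, 8.02% higher). Groups did not overlap in 8 members, all lower (12.7%). This held for 18.9% of all genes tested (9.37% lower, 9.55% higher) and for 22.4% of those with at least 100 reads (11.9% lower, 10.5% higher). In other noncoding classes with the same minimum count, 0 of 100 antisense rows and 0 of 10 SNHG small-nucleolar-RNA host genes passed edgeR's test, with median log2 fold changes of -0.02 and -0.03 and with 13 and 1 at an unadjusted p under 0.05. DESeq2 and limma-voom also called 0 in both classes. Members called numbered 0 to 8 over the settings tried, as the closing section sets out.

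**Figure D1:**
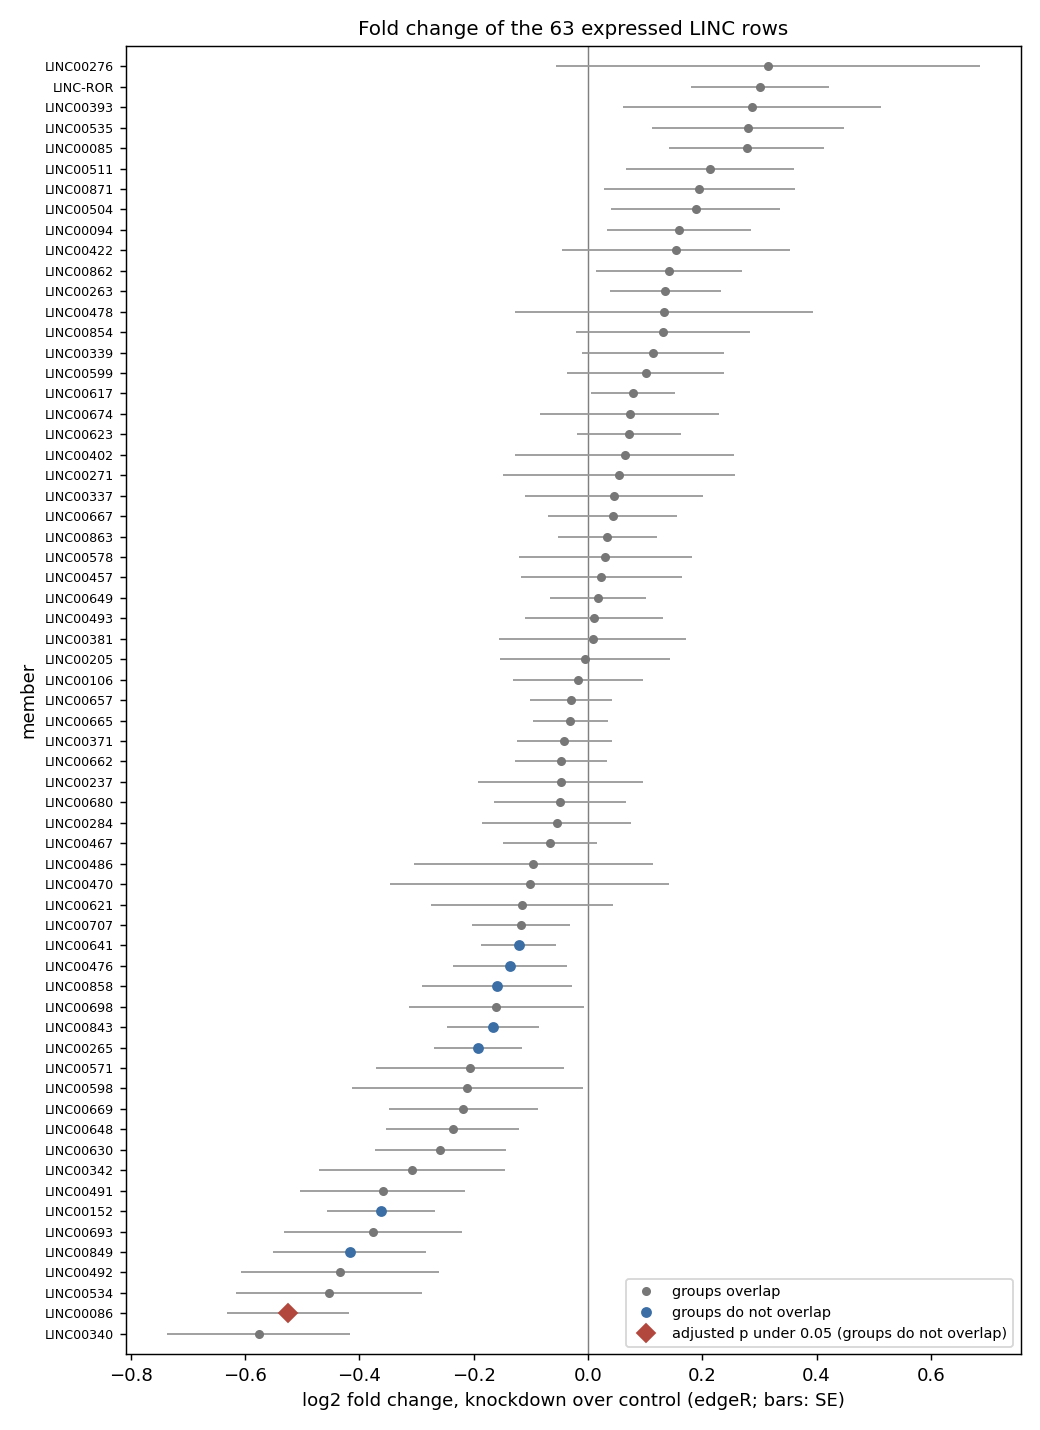
Log2 fold change (ALR knockdown over control, edgeR, with SE bars) of each of the 63 expressed LINC RNAs, in order of size. The values run from -0.58 to 0.31, most bars cross or approach 0, and LINC00086 is the member past an adjusted p of 0.05.

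LINC00086 had 8.32, 9.50 and 8.03 CPM after knockdown and 13, 12.2 and 12.1 in control, with libraries in the order a to c here and throughout. All 3 knockdown libraries lay below all 3 controls, and within each group the values were close together. Its level was 8.62 ± 0.777 CPM after knockdown and 12.4 ± 0.505 in control (SD, n = 3 each). The log2 fold change was -0.53 ± 0.11 (SE), and the adjusted p from edgeR was 0.0456. The log2 fold change stayed between -0.61 and -0.48 in the 14 other settings, but the adjusted p passed in 6 of them: without control library a it was 0.202, without control b 0.175, without control c 0.199, without knockdown a 0.0938 and without knockdown b 0.0582. The symbol is shared in RefSeq by SMIM10L2A, which has also been called LED, an RNA known as a target of p53, and by its copy SMIM10L2B. Their GENCODE transcripts, 5230 and 2737 nt long, align over 2745 bp at 92.35% identity. Whether reads were divided between the copies was not tested. The row LINC00087, which carries the other old name of the pair, had 3.21, 3.93 and 3.28 CPM after knockdown and 2.46, 2.35 and 3.39 in control. It lay in the opposite direction with overlapping groups, at a log2 fold change of 0.34 ± 0.20 and an edgeR adjusted p of 0.474.

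LINC00152, or CYTOR, on chromosome 2 (87455427 to 87521518), is an RNA described mainly in proliferating and cancer cells. It had 40.3, 39.0 and 46.7 CPM after knockdown and 58.9, 47.0 and 55.9 in control. The groups did not overlap, but knockdown c and control b were almost equal. The log2 fold change was -0.36 ± 0.09 and the edgeR adjusted p 0.109. A stretch of 2254 bp matches MIR4435-2HG, its duplicated relative, at 99.2% identity, so this count too is uncertain. Among the 58 members with transcripts, 14 have such a stretch of at least 300 bp at 95% identity or more in a gene that does not overlap them, and in 6 it reaches 1000 bp.

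LINC00340, or CASC15, lies on chromosome 6 (21666413 to 22195820) next to SOX4 and overlaps the antisense RNA NBAT1. It had 28.1, 27.7 and 45.5 CPM after knockdown and 53.1, 43.6 and 53.8 in control. Knockdown a and b were low, while knockdown c fell inside the control range. The log2 fold change of -0.58 ± 0.16 was the most negative of the 63, with an edgeR adjusted p of 0.131. Its neighbour SOX4, a transcription factor gene, had a log2 fold change of 0.06.

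The same division between libraries, with knockdown a and b below every control and knockdown c within or above the control range, recurred in 10 further members. With LINC00340 these make 17.5% of the 63, against 8.77% of all genes tested and 10.8% of those with at least 100 reads, as a description with no test. Of these 10, LINC00648, LINC00342, LINC00698, LINC00598 and LINC00665 had an unadjusted p of at least 0.05, as did LINC00669. LINC00693 on chromosome 3 had 55.0, 51.9 and 86.0 CPM after knockdown and 91.3, 73.6 and 84.8 in control. LINC00630 on the X chromosome had 37.5, 35.9 and 50.5 after knockdown and 53.1, 45.3 and 49.6 in control. In both, knockdown c reached the controls and the edgeR adjusted p was 0.303 and 0.336. LINC00491 had 9.69, 8.87 and 13.4 after knockdown and 14.7, 12.3 and 13.8 in control. LINC00492 had 4.58, 4.79 and 7.28 after knockdown and 7.14, 8.15 and 7.10 in control. These 2 genes overlap on chromosome 5 and lie between SLCO6A1, a transporter gene, and PAM, which encodes a peptide-amidating enzyme. Their log2 fold changes were -0.36 ± 0.14 and -0.43 ± 0.17, with edgeR adjusted p of 0.287 and 0.286, beside -0.38 ± 0.16 for SLCO6A1 and -0.28 ± 0.10 for PAM. LINC00669 had 30.6, 26.1 and 41 CPM after knockdown and 39.2, 35.5 and 38.6 in control, with knockdown c the highest of all 6. Without knockdown c, 8 members passed edgeR's test, all lower: LINC00086, LINC00152, LINC00340, LINC00491, LINC00492, LINC00630, LINC00669 and LINC00693. Over all genes that fit called 6.40%, so the background rose as well.

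**Figure D2:**
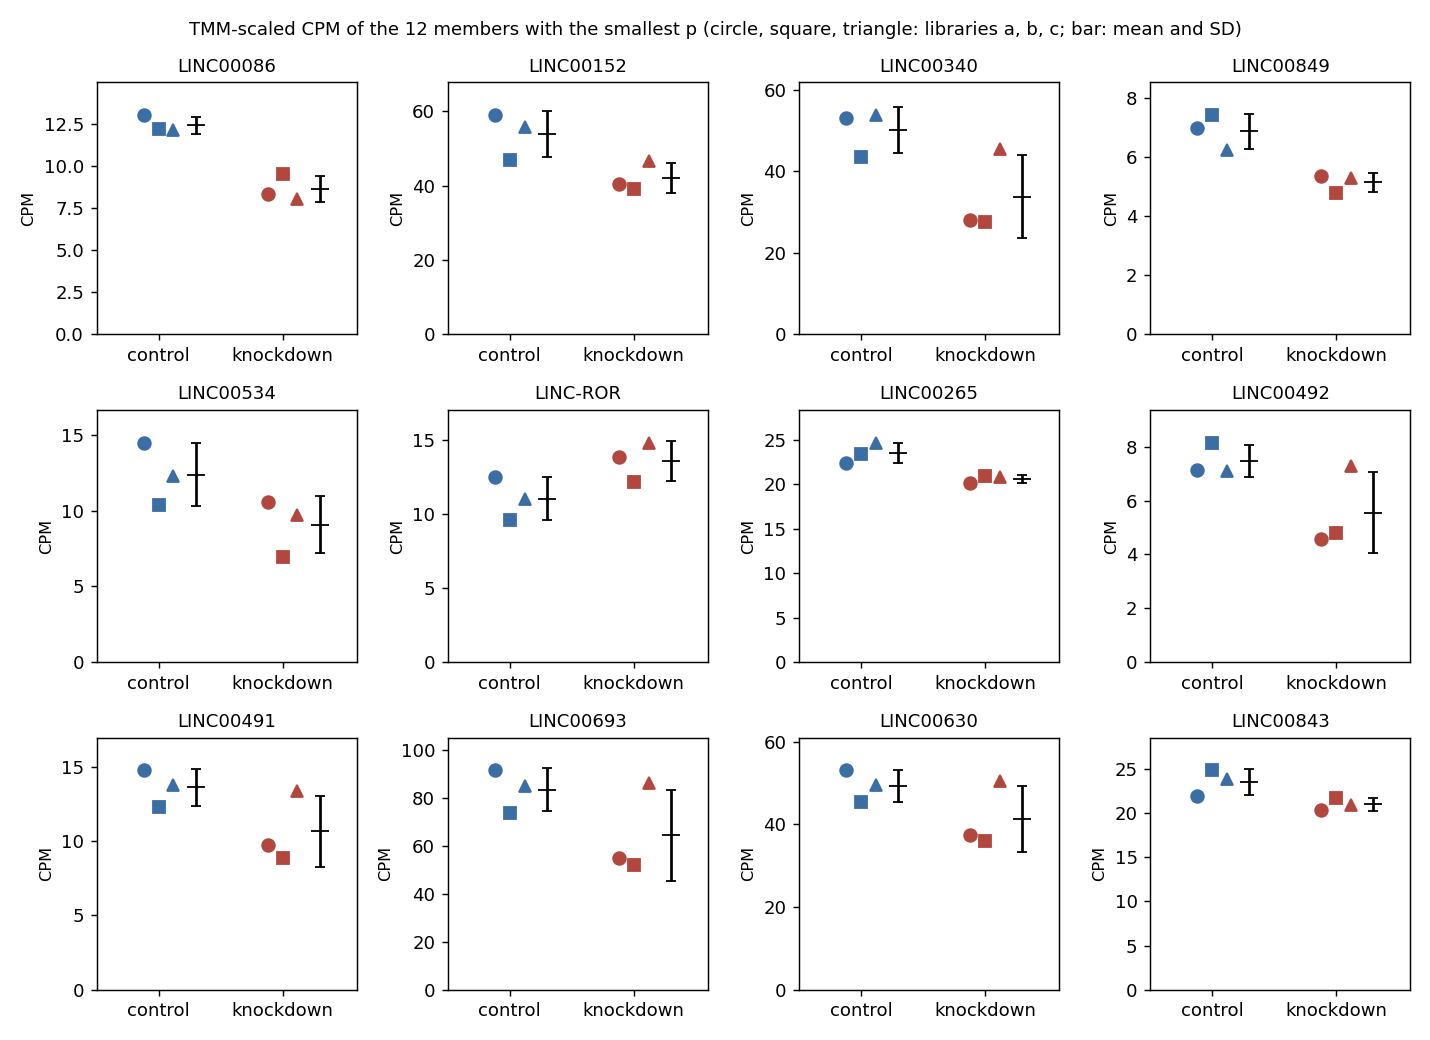
TMM-scaled CPM (vertical axes, linear from 0) of the 12 LINC RNAs with the smallest p in control and knockdown libraries. Circles, squares and triangles are libraries a, b and c, and bars give the mean and SD. LINC00086 separates the groups, while LINC00340 and LINC00693 have knockdown c among the controls.

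Several other members had lower levels after knockdown without passing the test. LINC00849 had 5.36, 4.76 and 5.30 CPM after knockdown and 6.97, 7.41 and 6.22 in control, with no overlap (log2 fold change -0.42 ± 0.13, edgeR adjusted p = 0.188). LINC00265 had 20.1, 20.9 and 20.8 after knockdown and 22.4, 23.4 and 24.7 in control, also with no overlap (-0.19 ± 0.08, edgeR adjusted p = 0.286). LINC00843 had 20.3, 21.8 and 20.9 after knockdown and 21.9, 24.8 and 23.9 in control (-0.17 ± 0.08, edgeR adjusted p = 0.377). LINC00641, LINC00476 and LINC00858 also had separate groups, at log2 fold changes between -0.16 and -0.12. LINC00534 had 10.6, 6.95 and 9.69 CPM after knockdown and 14.5, 10.4 and 12.3 in control, where knockdown a exceeded control b (-0.45 ± 0.16, edgeR adjusted p = 0.237).

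Of the pluripotency RNAs listed for comparison, 5 of 8 had a row, 3 were tested and 0 passed in edgeR, limma-voom or DESeq2, with 1 at an unadjusted p under 0.05. That 1 was LINC-ROR on chromosome 18, with 13.9, 12.2 and 14.8 CPM after knockdown and 12.5, 9.60 and 11 in control. Knockdown a and c were the highest, and knockdown b lay below control a. At 0.30 ± 0.12 on the log2 scale (edgeR adjusted p = 0.285) it was the only member higher at an unadjusted p under 0.05. LINC00617, or TUNAR, which encodes a small membrane protein and is known from neural differentiation and pluripotency, had 35.7, 37.5 and 35.0 CPM after knockdown and 34.9, 31.6 and 36.0 in control. The groups overlapped, with a log2 fold change of 0.08 ± 0.07 and an edgeR adjusted p of 0.675. LINC00458, just under the minimum count, had a log2 fold change of 0.02 ± 0.19, and LINC00678 was listed at 0 like ESRG.

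Among LINC genes with a described function, 7 of 8 had a row, 6 were tested and 0 passed in edgeR or limma-voom, while DESeq2 called LINC00152. In edgeR, LINC00152 was also the 1 of these at an unadjusted p under 0.05. NORAD, on chromosome 20 (36045618 to 36050960) as 1 exon and known for its part in chromosome stability, had 351, 363 and 314 CPM after knockdown and 343, 363 and 344 in control. Knockdown c was the lowest and the groups overlapped, with a log2 fold change of -0.03 ± 0.07 and an edgeR adjusted p of 0.888. Part of its sequence, 4614 bp, matches OVCH1-AS1 at 95.9% identity. LINC00467 had a log2 fold change of -0.07 ± 0.08, LINC00511 0.21 ± 0.15 and LINC00261, a low-count RNA of endoderm, -0.15 ± 0.31. LINC00472, with 9 to 19 reads per library, had 0.60 ± 0.41 (edgeR adjusted p = 0.546), and LINC00473 was listed at 0. The list of p53-linked RNAs did not hold LINC00086, described above, and 1 of its 7 RNAs had a row, TP53TG1, with a log2 fold change of 0.09 ± 0.20 and an edgeR adjusted p of 0.883. Of 5 LINC symbols found to encode small proteins, LINC00493 (SMIM26, a mitochondrial protein) stood at 0.01 ± 0.12 and LINC00116, which encodes mitoregulin, at -0.16 ± 0.30, and neither passed.

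LINC00486 had 2029, 2491 and 3482 CPM after knockdown and 3914, 2439 and 2197 in control. The highest value of the 6 was in a control and the lowest in a knockdown library, and the groups overlapped over most of their range. Its coefficient of variation was 27.8% in knockdown and 32.6% in control, and the change was -0.10 ± 0.21 on the log2 scale (edgeR adjusted p = 0.880). LINC00371 had 244, 259 and 252 CPM after knockdown and 261, 288 and 228 in control, with a log2 fold change of -0.04 ± 0.08. LINC00665, with a log2 fold change of -0.03 ± 0.07, and LINC00707, with -0.12 ± 0.09, were the other most abundant members that did not separate the groups.

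In several of the most positive members a single knockdown library stood high. LINC00276 had the highest log2 fold change, 0.31 ± 0.37, from 9.62 CPM in knockdown a beside 2.76 and 3.13 in knockdown b and c and 4.12, 4.03 and 4.29 in control. Knockdown a was above, and knockdown b and c below, every control. LINC00393 (0.29 ± 0.23) had 5.08, 2.64 and 3.72 CPM after knockdown and 3.20, 3.0 and 3.14 in control. LINC00535 (0.28 ± 0.17) had 13.9, 8.72 and 9.02 after knockdown and 9.32, 7.83 and 8.92 in control. In all 3, the high library was knockdown a. LINC00511 (0.21 ± 0.15) had 8.04, 6.08 and 6.21 after knockdown and 6.30, 5.31 and 5.92 in control. LINC00085 (0.28 ± 0.14) differed in that knockdown c was high, at 20.3 CPM beside 14.2 and 14.4, with 12.4, 13.2 and 14.6 in control.

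A high knockdown a was more frequent among members with a long gene body. RefSeq spans of the 61 matched members ran from 2.18 to 561 kb with a median of 40.0 kb, and 15 spanned at least 100 kb, a limit set after values had been seen. RefSeq and GENCODE differ in the extent of some members: LINC00662 spans 3448 bp in RefSeq but has 7958 bp of GENCODE exons. The split into long and shorter members rests on RefSeq alone. Among those 15, the highest of all 6 libraries was knockdown a in 9 (60.0%), against 4 of 46 shorter members (8.70%). The other 6 of the 15 lay below the control mean in knockdown a, among them LINC00340, LINC00669, LINC00693 and LINC00630. Knockdown b was the lowest of the 3 knockdown libraries in 15 of 15 long members and in 19 of 46 shorter ones (41.3%). The median log2 ratio to the control mean of the long members was 0.28 in knockdown a, -0.46 in knockdown b and 0.03 in knockdown c. For the shorter members it was -0.06, -0.06 and 0.006. LINC00478, which spans 561 kb, had 9.52, 3.63 and 6.61 CPM after knockdown and 6.65, 5.51 and 5.78 in control.

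A low knockdown b and a high knockdown a were also more frequent among long genes in general. With a mean of 100 to 2500 reads, knockdown b was the lowest knockdown library in 58.5% of 1644 genes spanning at least 100 kb and in 17.4% of 6574 shorter genes. Knockdown a was the highest of the 6 in 26.3% and 10.1%. Within the knockdown group, however, the highest library of these long genes was c in 47.0% and a in 37.5%, whereas in the 15 long LINC RNAs it was a in 10 and c in 5. Whether the shares of the LINC RNAs differ from those of other long genes was not tested. Knockdown a is also the library with the most rows detected, and the part of either property in these values was not tested.

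**Figure D3:**
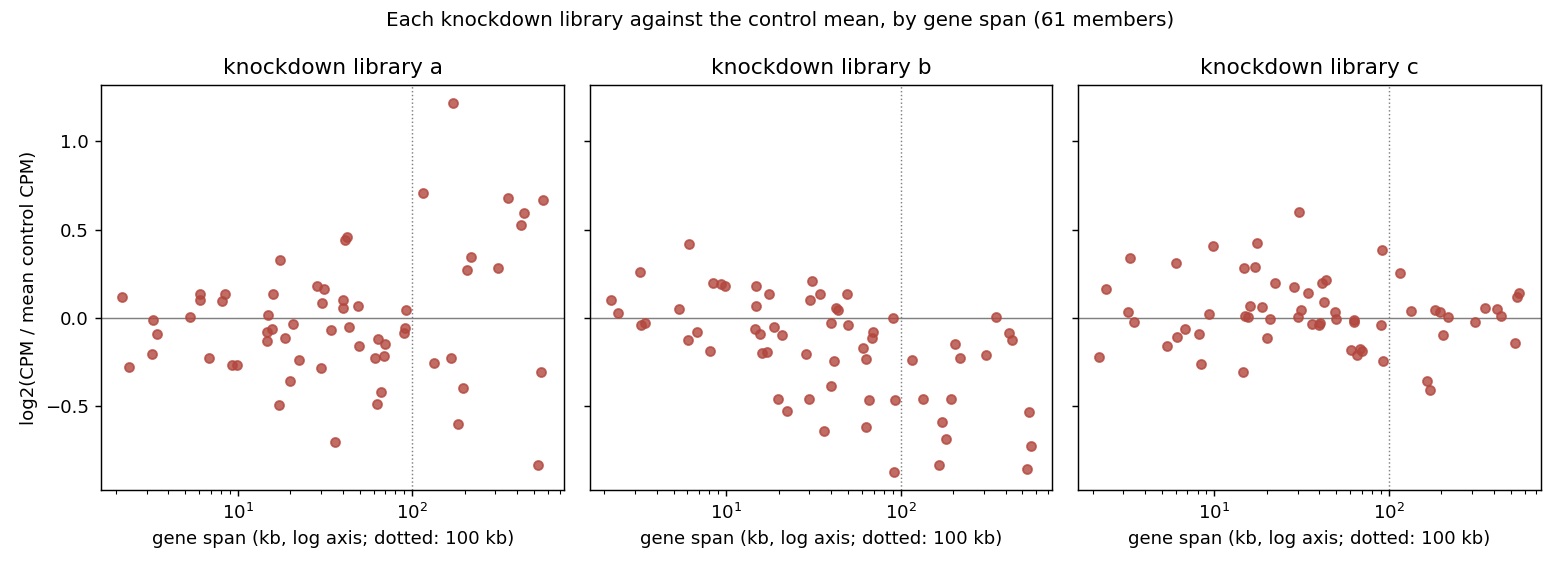
Log2 ratio of each knockdown library to the control mean (vertical axis) against RefSeq gene span in kb (log axis) for the 61 matched LINC RNAs, in a panel per knockdown library. Members of at least 100 kb lie mostly below 0 in knockdown b (14 of 15) and have medians of 0.28 in knockdown a and 0.03 in knockdown c.

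The spread between libraries was wider in LINC RNAs than in genes of similar minimum count. Their median coefficient of variation was 15.2% after knockdown and 8.48% in control, against 7.40% and 5.75% over all genes with at least 100 reads. It was larger after knockdown in 44 of 63 members (69.8%) and in 63.7% of those genes. Long members had medians of 23.6% after knockdown and 8.91% in control, and shorter members 12.1% and 8.46%. Many members have low counts, which limits how small a difference their test can call: the median mean count was 324 reads, against 974 over all genes with at least 100. The spreads above were thus not matched on count, and the part of count in their difference was not tested.

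**Figure D4:**
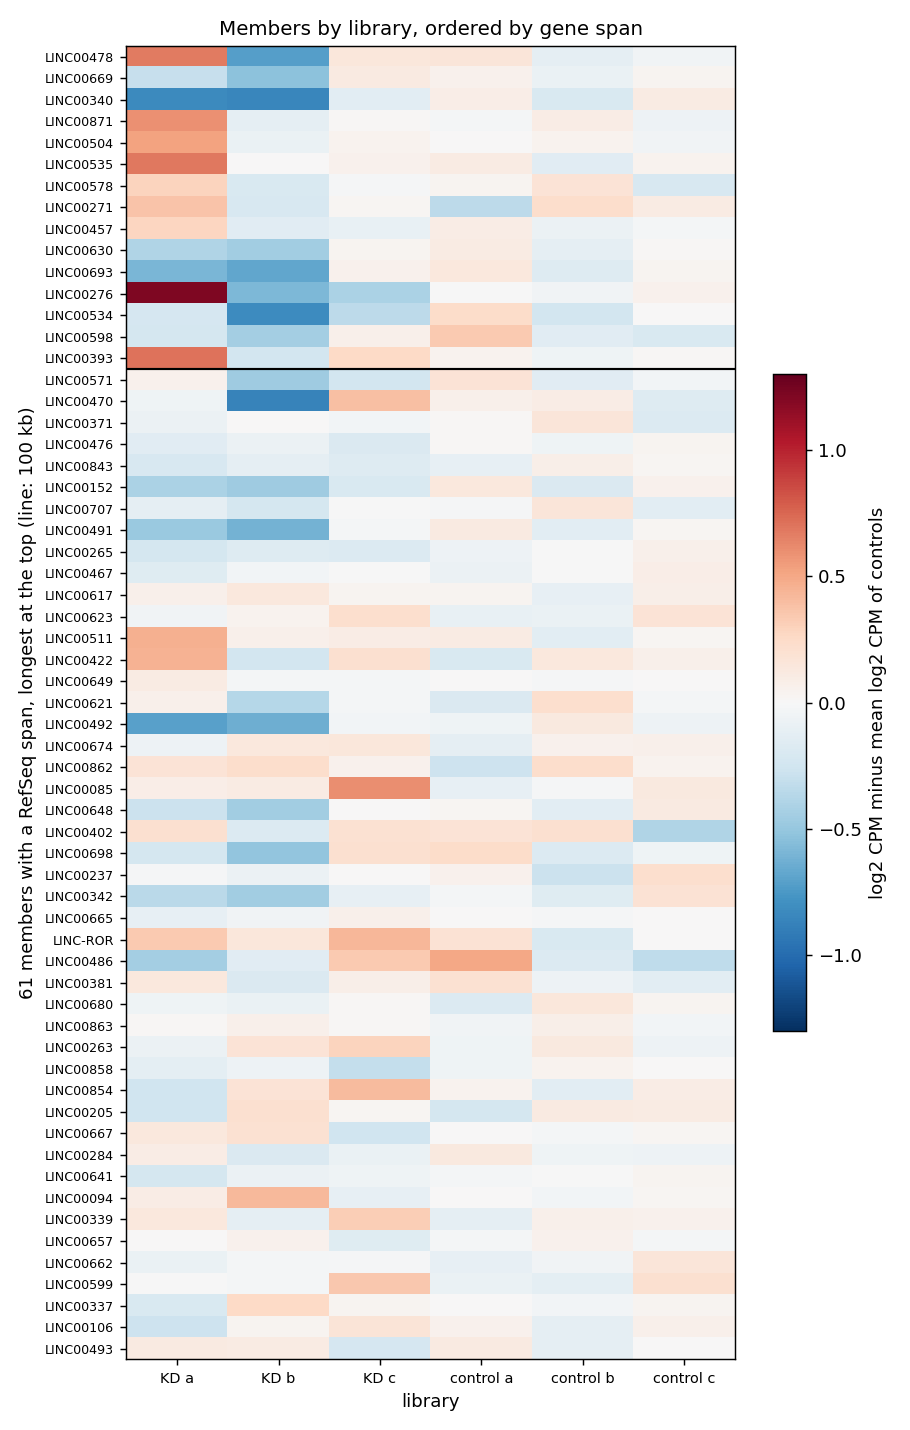
Log2 CPM minus the mean log2 CPM of the controls (colour) for the 61 LINC RNAs with a RefSeq span, longest at the top, with a column per library and a line at 100 kb. Above the line, knockdown a holds the highest value in 9 of 15 members and knockdown b the lowest knockdown value in 15 of 15.

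The 61 members with RefSeq coordinates were spread over 18 chromosomes, 10 of them on chromosome 13. Exons of 26 members overlap those of another GENCODE gene, 18 on the opposite and 13 on the same strand, and 9 members start within 5 kb of a protein-coding start. The nearest protein-coding gene was looked up among the tested genes by its GENCODE symbol. A match was found for 45 of the 58 members that have such a neighbour. A neighbour that was counted under another symbol would be missed, as would one that failed the count filter. The signs of the 2 log2 fold changes were the same in 27 of 45, and no background share was computed. The 45 cover 43 distinct neighbours, with KLF12 entering for 3 members. Of the 43 distinct neighbours, 1 passed edgeR's test, beside 0.786% of all genes tested and 1.14% of those with at least 100 reads. It was TBL1XR1, a subunit gene of the NCoR corepressor complex, which lies 213.9 kb from LINC00578. TBL1XR1 had 422, 408 and 498 CPM after knockdown and 643, 613 and 646 in control, a log2 fold change of -0.52 ± 0.08 with an edgeR adjusted p of 0.0121. LINC00578 itself had 9.45, 6.71 and 7.64 CPM after knockdown and 7.92, 8.73 and 6.66 in control, and its log2 fold change was 0.03 ± 0.15. KLF12, a repressor gene on chromosome 13 that is the nearest one to LINC00393, LINC00402 and LINC00381, was at -0.40 ± 0.11 (edgeR adjusted p = 0.110), while these 3 members stood at 0.29, 0.06 and 0.01.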

How the data were processed

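Total RNA of 6 H9 libraries was sequenced after directional library preparation, per the labels. The authors deposited whole-number read counts with a row per gene symbol and a column per library. The submitters' processing notes name Trimmomatic 0.39, STAR 2.7.8a, featureCounts, Subread 2.14.2 and hg38. The annotation, strand setting and treatment of reads with several alignments are not given in the sources used here, so counts of overlapping or duplicated genes are uncertain.

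Counts were filtered with filterByExpr (19721 genes kept), scaled by TMM and tested with the quasi-likelihood test of edgeR 4.0.16 in R 4.3.3, with a group term alone. Two-sided p-values were adjusted by Benjamini-Hochberg over all tested genes, with a threshold of 0.05. CPM values use TMM-scaled library sizes, and those of the marker sums and member shares use total counts. The SE is the log2 fold change divided by the square root of F. The common biological coefficient of variation was 0.103, and the script was tested on simulated data. The alternatives used DESeq2 1.42.0, limma 3.58.1, other scalings, filters and member thresholds, a replicate block, and each library left out. Gene spans, promoters and the miRNA come from RefSeq GRCh38.p14, exons and transcripts from GENCODE release 29, and copies from BLAST 2.17.0. The members and lists were chosen with earlier results of these data known. Named members were those past the threshold, the 12 with the smallest p, those with extreme fold changes or levels, those at the count threshold, and listed genes. Others were named after their values were seen: LINC00648, LINC00342, LINC00669, LINC00478, LINC00578, LINC00476, LINC00858, LINC00402 and LINC00381. So were the neighbours TBL1XR1, KLF12, SOX4, PAM and SLCO6A1. LINC00854, LINC00094 and LINC00662 were named for their annotation alone.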

Additional observations from a re-analysis of the deposited data

How the results depend on the processing

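The single member called became 0 with scaling by library size alone, with upper-quartile scaling and with limma-voom, where LINC00086 had adjusted p of 0.0531, 0.0514 and 0.0514. It became 5 of 63 without a low-count filter (LINC00086, LINC00152, LINC00340, LINC00534 and LINC00693) and 2 of 62 with the DESeq2 Wald test (LINC00086 and LINC00152). Leaving out each library in turn gave 0 to 8 members, 8 without knockdown library c and 0 without each of the other 5. Over all genes, those other 5 fits called 0.127% to 0.507%, so few calls could be looked for among 63 members. Library size alone, upper-quartile scaling and limma-voom called 0.801%, 0.796% and 0.882% of all genes. Calls over all genes moved too, from 155 (0.786%) to 1064 of 32300 without the filter (3.29%). They were 536 of 13219 with DESeq2 (4.05%) and 1309 without knockdown c (6.40%). The shares of members called in the same fits were 1.59%, 7.94%, 3.23% and 12.7%, in that order. The cause was not tested. DESeq2 size factors, a minimum mean of 50 reads and member thresholds of 50, 200 or 100 reads in control alone kept the count at 1.

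With the replicate block, 3 members passed (LINC00086, LINC00152 and LINC00340, 4.76%), and 393 genes in all (1.99%). Deviations of libraries with the same letter correlated at 1.23e-05, 0.116 and -0.0251 for a, b and c, so the letters were not taken as pairs.

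The median log2 fold change of the members stayed between -0.06 and -0.01 without each library. None of the 12 members with the smallest p changed direction under any alternative that was run. These 12 were picked by their p in the main fit, and the alternatives reuse the same libraries. Their stable direction was therefore largely fixed in advance.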

Other observations

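The 66 tested LINC rows with a mean under 100 reads had a median log2 fold change of 0.15, with 45 above 0. Of these rows, 0 passed the adjusted threshold in edgeR or limma-voom, and 1 (1.52%) had an unadjusted p under 0.05. Among all 6353 tested genes under that mean, edgeR called 2 (0.0315%), and 328 (5.16%) had an unadjusted p under 0.05. Calls at this count level are thus rare in general. In 27 of the 66 the highest library was knockdown a, as it was in 19.6% of all genes tested. The share over all genes under that mean was not computed. Without knockdown a the median of the 66 was -0.18, with 31 above 0. Over all 6353 tested genes under that mean the median was 0.11, and -0.02 without knockdown a. LINC00607, one of the rows just under the threshold, had separate groups at -0.43 ± 0.20 on the log2 scale (edgeR adjusted p = 0.345).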
